A study of Homo sapiens with 20 samples.

Results

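The SOX transcription factors described here are 10 genes of that family (SOX2, SOX4, SOX5, SOX6, SOX7, SOX9, SOX12, SOX13, SOX15 and SOX18), taken by name from the 54261 features of the deposited gene count table. They were measured in TPC-1 cells, a line from a human papillary thyroid carcinoma, in 6 libraries of cells cocultured for 48 h with PMN-MDSCs (polymorphonuclear myeloid-derived suppressor cells, neutrophil-like cells that restrain T cells) and in 4 control libraries of cells kept without them. The same design was measured by miRNA-seq, again with 6 coculture and 4 control libraries. All groups are the same line, with no genetic change named in the labels, and the sources used here do not state where the PMN-MDSCs came from, how the cultures shared space or whether they were removed before RNA extraction. The genes were chosen with their RNA-seq values in view, so levels and differences of the SOX genes are given as descriptions with no test.

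SOX proteins bind DNA through an HMG box, a domain shared with SRY that sits in the minor groove and bends the helix, and they usually act with a partner factor. The family is divided by sequence into groups: here SOX2 stands for SOXB1, SOX4 and SOX12 for SOXC, SOX5, SOX6 and SOX13 for SOXD, SOX9 for SOXE, SOX7 and SOX18 for SOXF, and SOX15 for SOXG. Several of them meet the Wnt pathway at beta-catenin and the TCF/LEF factors, where SOX7 and SOX9 are known as antagonists and SOX4 can act as an enhancer, and in the thyroid lineage the better known regulators are PAX8, NKX2-1 and FOXE1.

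RNA-seq totals ran from 40237801 to 48197608 counts per library, and levels are given as CPM, counts divided by the TMM-adjusted library size and put on a single scale for all libraries. A floor of 3 counts in a library corresponded to 0.0632 to 0.0758 CPM and covers counting error only. Nothing in the labels says that libraries of a group were separate cultures, so any p-value below measures the spread between these libraries, which can be a technical one. Coculture 1 and 2 stood apart from the rest: they scored -66.1 and -60.6 on the first principal component (39.3% of variance over tested genes), where the remaining 8 libraries scored 0.908 to 31.8. The SOX differences, and the levels of PAX8, KRT18 and TGFB1, are also given without those 2 libraries. The cells carried the thyroid factor PAX8 at 624.9 ± 107 CPM in coculture and 507.7 ± 11.2 CPM in controls (SD, n = 6 and 4), with 557.9 ± 35.2 CPM in coculture 3 to 6 alone. The epithelial keratin KRT18 was at 356.1 ± 58.6 CPM in coculture and 350.0 ± 43.9 CPM in controls, with 391.0 ± 28.6 CPM in coculture 3 to 6 alone. NKX2-1 and TSHR had 1 count each over all 10 libraries. Other epithelial markers were low: KRT19 was at 0.966 ± 0.336 CPM in coculture and 0.594 ± 0.279 CPM in controls, and EPCAM and CDH1 had 33 and 5 counts over all libraries. LYZ, a lysozyme of myeloid cells, was at 13.9 ± 2.17 CPM in coculture and 0.0860 ± 0.0783 CPM in controls.

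The sequences shown first are promoter windows of SOX genes chosen after their levels were seen, and no link between windows and levels was tested. SOX4, SOX12 and SOX13 were high together in coculture 1 and 2, and their promoter windows are given from 250 bases before to 50 bases after the gene start (RefSeq, GRCh38.p14, plus strand: SOX4 at chr6:21593501-21593800, SOX12 at chr20:325302-325601, SOX13 at chr1:204072865-204073164). SOX18 was high there too, but the reference used held no promoter window for it, nor for SOX7, SOX9 and SOX15. Capitals mark the CCAAT box (CCAAT, or ATTGG on the other strand) and the GC box (GGGCGG, or CCGCCC on the other strand).
SOX4 promoter: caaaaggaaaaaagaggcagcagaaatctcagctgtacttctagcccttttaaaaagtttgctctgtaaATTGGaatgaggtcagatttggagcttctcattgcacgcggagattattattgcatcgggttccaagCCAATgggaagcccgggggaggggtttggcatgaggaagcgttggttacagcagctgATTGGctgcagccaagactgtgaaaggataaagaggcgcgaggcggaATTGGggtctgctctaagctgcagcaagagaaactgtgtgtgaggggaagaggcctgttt
SOX12 promoter: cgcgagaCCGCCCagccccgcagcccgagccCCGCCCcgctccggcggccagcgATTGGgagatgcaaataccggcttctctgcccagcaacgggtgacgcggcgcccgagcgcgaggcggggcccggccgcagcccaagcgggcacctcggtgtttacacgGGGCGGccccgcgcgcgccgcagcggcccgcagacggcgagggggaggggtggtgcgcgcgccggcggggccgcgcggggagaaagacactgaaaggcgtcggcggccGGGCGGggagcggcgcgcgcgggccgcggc
SOX13 promoter: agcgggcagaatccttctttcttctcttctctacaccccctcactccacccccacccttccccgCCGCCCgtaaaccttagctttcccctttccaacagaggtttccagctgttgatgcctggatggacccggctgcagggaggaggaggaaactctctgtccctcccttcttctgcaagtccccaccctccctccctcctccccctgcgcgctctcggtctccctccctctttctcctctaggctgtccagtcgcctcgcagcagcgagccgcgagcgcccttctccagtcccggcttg
The 3 windows differed in composition, with a GC content of 49.3% for SOX4, 80.3% for SOX12 and 62.7% for SOX13, against a median of 58.3% over 27305 promoter windows of the same length. SOX4 held 4 matches to CCAAT, a number reached by 1.06% of all windows, whereas SOX12 held 1 and SOX13 held 0; 35.7% of windows held at least 1. SOX12 held 4 matches to GGGCGG, reached by 9.13% of windows, SOX13 held 1 and SOX4 held 0, where 44.6% of windows held at least 1. None of the 3 windows held the SOX core motif ACAAT (either strand; 27.99% of all windows) or TATAAA (11.95%). The E-box CANNTG matched 2 times in SOX4, 1 time in SOX13 and 0 times in SOX12 (68.9% of windows), and none of these matches overlapped a capital. SOX4 and SOX12 had CCAAT in common and SOX12 and SOX13 had GGGCGG in common, and neither motif was found in all 3 windows. SOX5 was also highest in coculture 1 and 2, at only 6 and 10 counts. Its window, not shown, held 2 matches to ACAAT (reached by 7.91% of windows), 1 to GGGCGG and 0 to CCAAT.

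The second set of sequences is that of mature miRNAs listed for SOX9 (miR-145-5p, miR-101-3p and miR-140-5p, without miR-124-3p, which was too low to test) and for SOX7 (miR-24-3p, miR-184 and miR-9-5p), the SOX genes with the largest falls. They are written 5′ to 3′ as DNA letters from the deposited miRNA table, with the seed, bases 2 to 8, in capitals. No seed was shared among these 6.
hsa-miR-145-5p: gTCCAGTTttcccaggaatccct
hsa-miR-101-3p: tACAGTACtgtgataactgaa
hsa-miR-140-5p: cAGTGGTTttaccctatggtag
hsa-miR-24-3p: tGGCTCAGttcagcaggaacag
hsa-miR-184: tGGACGGAgaactgataagggt
hsa-miR-9-5p: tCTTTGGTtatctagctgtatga

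SOX9 (hsa:6662, chr17:72121020-72126420, plus strand, GRCh38.p10 as in the deposited table) is the SOXE factor that drives cartilage formation and testis determination and is found in many epithelial progenitors. It stood at 38.8, 32.1, 36.3, 28.2, 43.2 and 38.0 CPM in coculture 1 to 6, and at 67.7, 52.0, 51.8 and 52.3 CPM in control 1 to 4. Every coculture library was below every control library, and control 1 was well above the other 3 controls. The means were 36.1 ± 5.26 CPM in coculture and 56.0 ± 7.84 CPM in controls (SD, n = 6 and 4), a log2 fold change of -0.63 ± 0.13 (SE). In bulk RNA, fewer cells that express a gene and less of its RNA per cell cannot be told apart. SOX9-AS1, the antisense transcript beside SOX9, had 7 counts in all coculture libraries and 3 in all controls and was too low to compare.

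SOX7 (hsa:83595, chr8:10723768-10730574, minus strand) is a SOXF factor of endothelial and endodermal lineages that binds beta-catenin and is described as a tumor suppressor in several carcinomas. Its levels were 24.4, 29.1, 27.1, 22.9, 27.1 and 23.6 CPM in coculture 1 to 6, and 45.1, 30.5, 47.7 and 38.9 CPM in control 1 to 4. The groups again did not overlap, although control 2 lay close above the highest coculture library. The means were 25.7 ± 2.44 CPM in coculture and 40.6 ± 7.68 CPM in controls, a log2 fold change of -0.66 ± 0.13 (SE).

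Of the 10 SOX genes, 7 passed the filter on low counts and were among the 15629 genes tested. SOX7 and SOX9 were the 2 with no overlap between groups, both lower in coculture, where 1.17% of all tested genes were lower without overlap, 2.45% were higher without overlap and 3.62% did not overlap in either direction. The same 2 were in the set past an adjusted p of 0.05 in edgeR, which held 0.186% of tested genes as lower, 1.14% as higher and 1.32% in either direction. These genes were picked on the same contrast, so nothing is read from either count, nor from whether they were called in the alternative fits. Leaving out coculture 1 and 2 gave -0.70 ± 0.13 for SOX7 and -0.63 ± 0.13 for SOX9. When 1 library was left out, SOX7 ranged from -0.78 to -0.57 and SOX9 from -0.69 to -0.53, and each stayed in the called set in 5 of 10 such fits: SOX7 left it without coculture 4 or 6 or control 1, 3 or 4, and SOX9 without coculture 6 or any control.

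**Figure D1:**
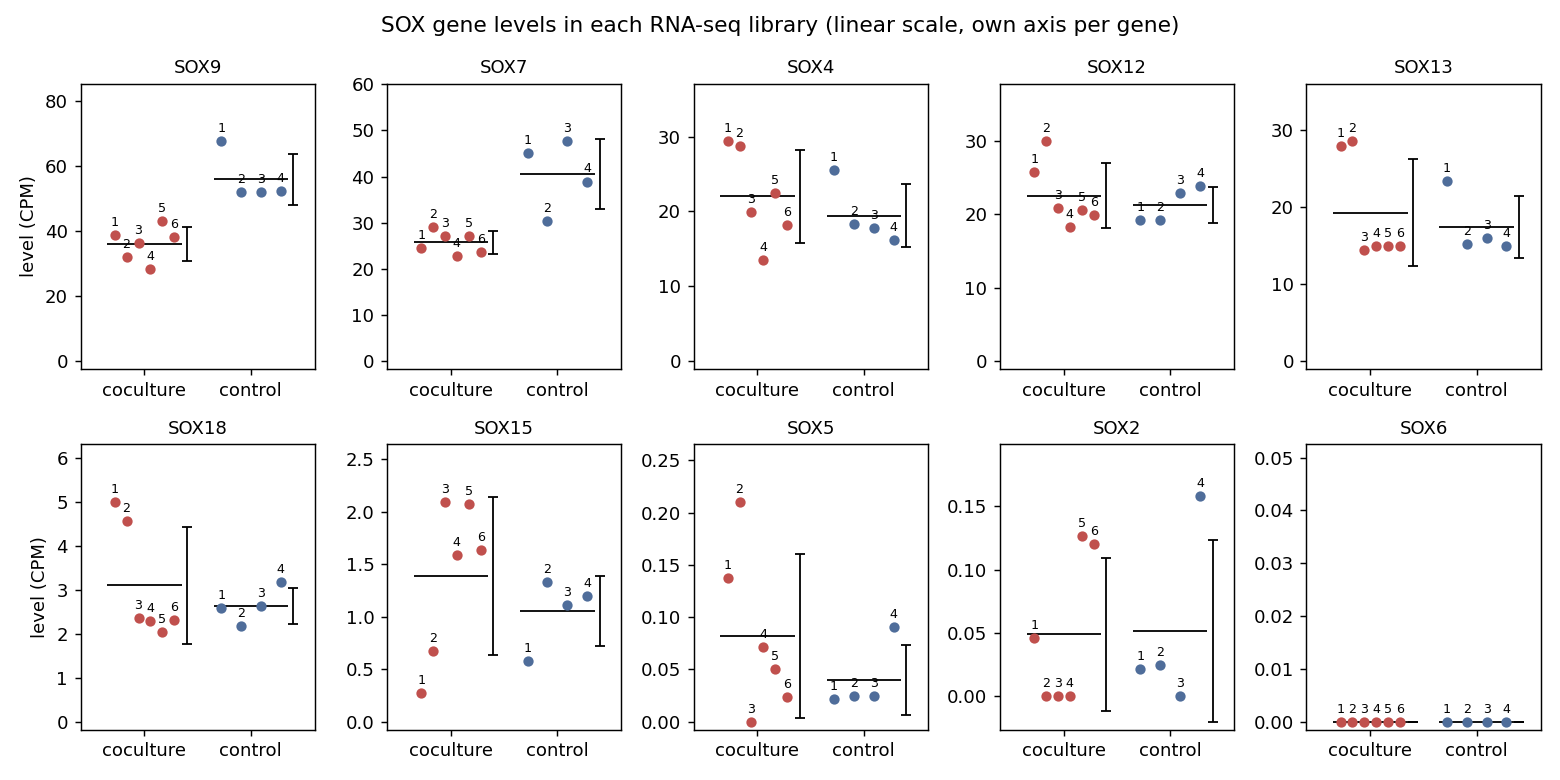
Level of each of the 10 SOX genes in CPM (vertical axes, linear, a scale per gene) in coculture (left) and control (right) libraries. Points are libraries numbered by replicate, the horizontal line is the mean and the bar is the SD. SOX9 and SOX7 are the genes whose coculture points all lie under the control points, while SOX4, SOX12, SOX13 and SOX18 have coculture 1 and 2 on top.

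SOX4 and SOX12 are the SOXC factors measured, transcriptional activators with broad roles in progenitor cells, and SOX4 is a TGF-beta target often raised in carcinomas. SOX4 (hsa:6659, chr6:21593741-21595959, plus strand) was at 29.4, 28.7, 19.96, 13.4, 22.5 and 18.2 CPM in coculture 1 to 6, and at 25.5, 18.3, 17.8 and 16.1 CPM in control 1 to 4. Coculture 1 and 2 were the highest libraries, control 1 came next, and the rest of both groups lay together. The means of 22.02 ± 6.20 CPM in coculture and 19.4 ± 4.17 CPM in controls differed by less than the spread between libraries, with a log2 fold change of 0.18 ± 0.21 (SE), or -0.08 without coculture 1 and 2. SOX12 (hsa:6666, chr20:325571-326872, plus strand) was at 25.8, 30.0, 20.8, 18.2, 20.6 and 19.9 CPM in coculture 1 to 6, and at 19.2, 19.2, 22.9 and 23.8 CPM in control 1 to 4. Only coculture 1 and 2 lay above all 4 controls. The means were 22.5 ± 4.44 CPM in coculture and 21.3 ± 2.42 CPM in controls, with a log2 fold change of 0.08 ± 0.15 (SE), or -0.11 without coculture 1 and 2.

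SOX13, SOX5 and SOX6 are the SOXD factors, which carry a coiled coil and no known activation domain. SOX13 (hsa:9580, chr1:204073096-204127743, plus strand), known as a T-lineage factor in mouse, was at 27.9, 28.6, 14.4, 15.0, 14.9 and 14.9 CPM in coculture 1 to 6, and at 23.3, 15.1, 16.0 and 14.9 CPM in control 1 to 4. Coculture 3 to 6 lay within 14.4 to 15.0 CPM and control 2 to 4 within 14.9 to 16.0 CPM, so 3 libraries (coculture 1, coculture 2 and control 1) carried nearly all of the spread. The log2 fold change was 0.15 ± 0.24 (SE), and -0.25 without coculture 1 and 2. SOX5 (hsa:6660, chr12:23529499-24562701, minus strand), a cofactor of SOX9 in cartilage, had 6, 10, 0, 3, 2 and 1 counts in coculture 1 to 6, and 1, 1, 1 and 4 counts in control 1 to 4. Coculture 1 and 2 held most of its 22 coculture counts, against 7 control counts, and the ratio per sequenced depth of 2.12 had a 95% counting interval of 0.874 to 5.87. Coculture 3 to 6 alone held 6 counts, a ratio of 0.897 (95% counting interval 0.249 to 3.12), so the direction turned without coculture 1 and 2 and no difference was detectable at this depth. SOX6 (hsa:55553, chr11:15966449-16476388, minus strand) had 0 counts in all 10 libraries, so each library allows up to 3 counts.

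SOX18 and SOX15 were measured at a few CPM. SOX18 (hsa:54345, chr20:64047726-64049626, minus strand), a SOXF factor of blood and lymph vessel endothelium, was at 4.999, 4.57, 2.36, 2.28, 2.05 and 2.31 CPM in coculture 1 to 6, and at 2.58, 2.18, 2.62 and 3.16 CPM in control 1 to 4. Coculture 1 and 2 were above all other libraries and coculture 3 to 6 lay within or below the control range. The log2 fold change was 0.23 ± 0.28 (SE) and turned to -0.24 without coculture 1 and 2. SOX18 overlaps TCEA2, an elongation factor gene on the opposite strand, which was at 24.8 and 26.5 CPM in coculture 1 and 2, at 8.96 to 11.7 CPM in coculture 3 to 6 and at 11.5 to 13.3 CPM in controls. The sources used here do not say whether strand was used in counting, so reads of the 2 genes cannot be told apart. The endothelial markers summed to 0.303 to 1.35 CPM in coculture and 0.158 to 0.840 CPM in controls over 6 genes. PECAM1 was the most abundant, at 0.451 ± 0.316 CPM in coculture and 0.239 ± 0.157 CPM in controls, with overlapping groups (adjusted p = 0.638, edgeR). TEK had 27 coculture and 10 control counts and VWF 16 and 6, also overlapping and with higher mean CPM in coculture. CDH5 had 2 coculture and 5 control counts, KDR 1 and 1, and EMCN was at 0.

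SOX15 (hsa:6665, chr17:7588180-7590170, minus strand), the only human SOXG gene, known for a role in mouse muscle regeneration, went the other way among coculture libraries. It was at 0.275, 0.674, 2.10, 1.59, 2.07 and 1.64 CPM in coculture 1 to 6, and at 0.577, 1.33, 1.12 and 1.197 CPM in control 1 to 4. Coculture 1 was the lowest library, coculture 2 was also under most controls, and coculture 3 to 6 were above every control. The log2 fold change of 0.40 ± 0.47 (SE) became 0.80 ± 0.26 without coculture 1 and 2 and -0.11 with a replicate block, whose contrast rests on coculture 1 to 4. SOX15 overlaps MPDU1, a gene of dolichol sugar use on the opposite strand, at 88.1 ± 14.5 CPM in coculture and 96.5 ± 14.2 CPM in controls, and the strand limit holds here too.

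SOX2 (hsa:6657, chr3:181711924-181713314, plus strand), the SOXB1 factor of pluripotent and neural stem cells, had 2, 0, 0, 0, 5 and 5 counts in coculture 1 to 6, and 1, 1, 0 and 7 counts in control 1 to 4. The 12 coculture and 9 control counts gave a ratio of 0.899 with a 95% counting interval of 0.348 to 2.42, so no difference was detectable here either, and without coculture 1 and 2 the ratio was 1.16 (0.425 to 3.23). SOX2-OT, the transcript in whose intron SOX2 lies, had 2 counts in coculture and 0 in controls. The 9 other SOX genes in the table were lower still: 0 passed the filter, SOX1, SOX8 and SOX14 had 0 counts, and the most abundant were SOX30, with 5 coculture and 6 control counts, and SOX10, with 3 coculture and 1 control counts.

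Levels were compared between genes only per kilobase of the deposited gene length, as CPM per kb. In coculture the order was SOX12 (17.3 ± 3.41 CPM per kb), SOX4 (9.92 ± 2.79), SOX9 (9.17 ± 1.34), SOX7 (7.84 ± 0.743), SOX13 (4.71 ± 1.70), SOX18 (1.82 ± 0.774) and SOX15 (0.998 ± 0.539), followed by SOX2, SOX5 and SOX6. In controls it was SOX12 (16.3 ± 1.86 CPM per kb), SOX9 (14.2 ± 1.99), SOX7 (12.4 ± 2.34), SOX4 (8.75 ± 1.88), SOX13 (4.23 ± 0.985), SOX18 (1.55 ± 0.238) and SOX15 (0.758 ± 0.238), with the same 3 genes last. SOX12 led in both groups, and SOX4 stood below SOX9 and SOX7 in controls. Its mean lay above that of SOX9 in coculture through coculture 1 and 2 alone, the 2 of 6 libraries where SOX4 was the higher of the pair. In coculture 3 to 6 SOX4 was at 8.34 ± 1.72 and SOX9 at 9.26 ± 1.57 CPM per kb, and SOX15 (1.33 ± 0.195) and SOX18 (1.32 ± 0.0818) stood level. The ranges of SOX4 and SOX9, of SOX9 and SOX7, of SOX7 and SOX13, and of SOX18 and SOX15 overlapped in coculture, as did those of SOX12 and SOX9, SOX9 and SOX7, and SOX7 and SOX4 in controls. SOX7 and SOX9 together made up 33.3 ± 4.36% of the summed CPM per kb of the 10 genes in coculture (27.0% to 37.3%) and 45.5 ± 1.94% in controls (43.8% to 47.7%), and 36.1 ± 0.925% in coculture 3 to 6, while the sum itself was 51.8 ± 8.59 in coculture and 58.3 ± 5.58 in controls. The deposited gene models of SOX2, SOX4, SOX6 and SOX12 are shorter than their RefSeq genes, which raises their values per kb if reads outside the model were counted.

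**Figure D2:**
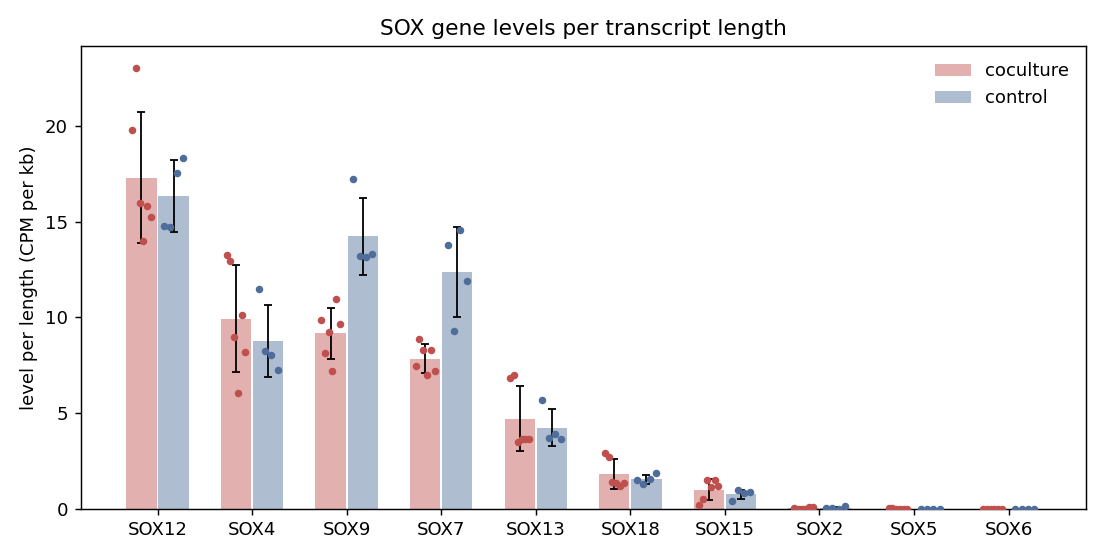
Level per kilobase of deposited gene length (CPM per kb, linear axis) of the 10 SOX genes in coculture (left bar of each pair) and control (right bar). Bars are means, error bars are SD and points are libraries (n = 6 and 4). SOX12 is highest in both groups, and SOX9 and SOX7 are lower in coculture than in controls.

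The profile of each SOX gene over the 10 libraries was compared with those of 10356 genes at 5 CPM or more, as the mean absolute difference of log2 levels scaled to mean 0 and SD 1, where 0 is an identical profile and the median gene lay at 1.06 to 1.15. The nearest to SOX9 were PTCHD4 (0.180), a patched-domain gene at 15.4 ± 1.88 CPM in coculture and 23.7 ± 2.75 CPM in controls, and CHRDL1 (0.215), a secreted BMP antagonist at 95.1 ± 9.12 CPM in coculture and 129.6 ± 7.57 CPM in controls. Nearest to SOX7 were DZIP1L (0.256) and LOC100506634 (0.258), to SOX4 SPC24 (0.210) and PLEKHH3 (0.213), to SOX12 NUDT2 (0.181) and NDUFV1 (0.210), and to SOX13 MAP3K12 (0.137) and PTPRH (0.154). MAP3K12, a kinase, was at 21.2 and 23.8 CPM in coculture 1 and 2, at 8.99 to 9.83 CPM in coculture 3 to 6, at 16.6 CPM in control 1 and at 10.4 to 10.9 CPM in control 2 to 4. Within the SOX genes the closest pairs were SOX13 and SOX18 (0.367), SOX12 and SOX18 (0.387) and SOX4 and SOX13 (0.407). SOX7 and SOX9 lay at 0.515, and SOX13 and SOX15 were far apart at 1.62. These distances describe 10 libraries in 2 groups. The genes near SOX4, SOX12 and SOX13 share the split of coculture 1 and 2 from the rest. Those near SOX9 share the difference between coculture and control on which the SOX genes were picked. Those near SOX7 differed in the same direction but by less than SOX7. DZIP1L had a log2 fold change of -0.23 ± 0.11 (SE) with overlapping groups, and LOC100506634 one of -0.39 ± 0.12 without overlap.

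**Figure D3:**
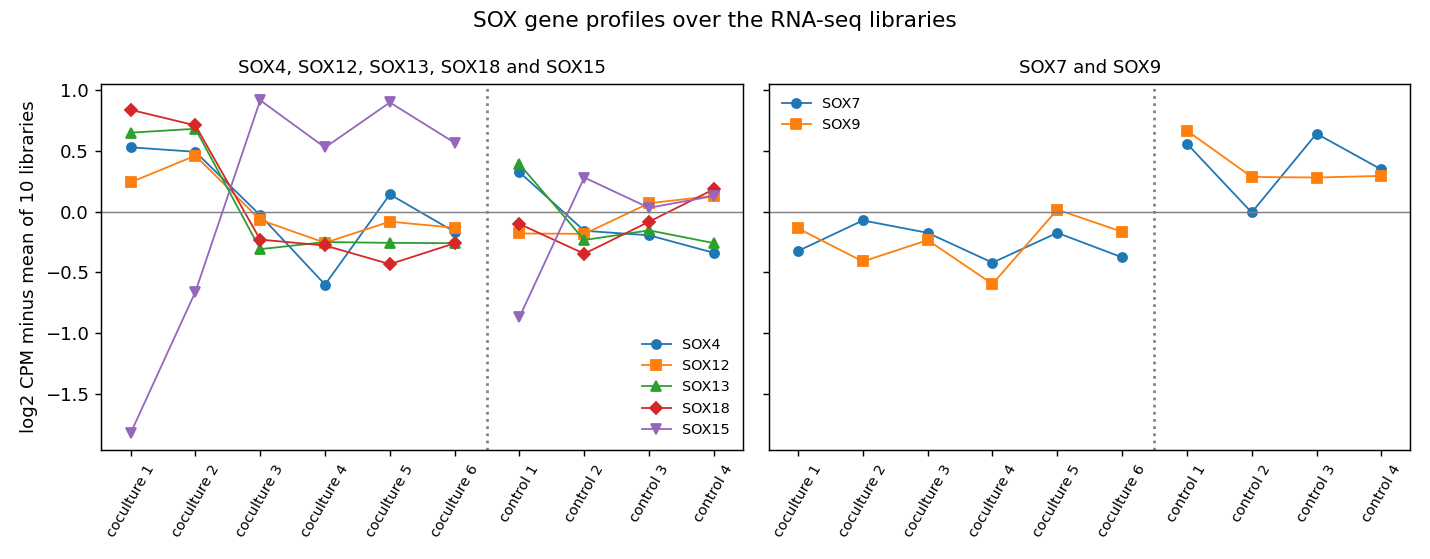
Log2 level of each tested SOX gene minus its mean over the 10 libraries (vertical axis), by library, coculture 1 to 6 left of control 1 to 4. SOX4, SOX12, SOX13 and SOX18 peak in coculture 1 and 2, SOX15 is lowest in coculture 1, and SOX7 and SOX9 are lower in each coculture library than in any control.

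Coculture 1 and 2 also differed in other genes of the SOX pathways, named here after their values were seen. PTCH1, the Hedgehog receptor and a target of that pathway, was at 9.26 and 8.82 CPM in coculture 1 and 2, at 0.939 to 1.95 CPM in coculture 3 to 6, at 4.999 CPM in control 1 and at 1.78 to 1.85 CPM in control 2 to 4. GLI1, a Hedgehog effector, was at 1.81 and 2.17 CPM in coculture 1 and 2, at 0.143 to 0.241 CPM in coculture 3 to 6 and at 0.620 CPM in control 1, and SHH, the ligand, at 1.54 and 1.26 CPM, 0.119 to 0.334 CPM and 0.470 CPM in the same libraries. Control 1 was thus above control 2 to 4 for these genes as it was for SOX4 and SOX13. Coculture 1 alone held ACAN (24.9 CPM), COMP (5.41 CPM), COL1A2 (50.8 CPM), COL3A1 (7.82 CPM) and DCN (8.90 CPM), matrix genes of cartilage and fibroblasts that were at most 0.303 CPM in each of the other 9 libraries. The 6 fibroblast markers summed to 3.30 to 144 CPM in coculture and 3.32 to 6.71 CPM in controls. SOX9 in coculture 1 was the second highest of the coculture values, and leaving that library out gave -0.65 ± 0.13 for SOX9 and -0.64 ± 0.13 for SOX7.

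Several leukocyte and neutrophil markers were higher in the coculture libraries in which SOX7 and SOX9 were lower. Of 6 leukocyte markers, 5 were tested and 4 were called higher in edgeR. Of 11 neutrophil markers, 3 were tested and 2 (ITGAM and S100A9) were called higher, where 1.14% of all tested genes were. CD53 and TYROBP had 0 control counts, S100A9 had 1 and ITGAM had 3, so these passed the filter only through coculture libraries. Nothing is therefore read from the share of markers called. The summed levels were 145 to 188 CPM in coculture and 133 to 156 CPM in controls for the leukocyte list, of which LAPTM5 alone held 140.8 ± 16.3 CPM in coculture and 142.3 ± 9.94 CPM in controls, and 4.04 to 7.92 CPM in coculture and 3.77 to 4.25 CPM in controls for the neutrophil list, of which FUT4 alone held 3.85 ± 0.657 CPM in coculture and 4.05 ± 0.210 CPM in controls. The neutrophil markers FCGR3B and ELANE had 0 counts in all libraries, and CEACAM8 and S100A12 had 1 each. S100A8 had 53 counts in coculture and 0 in controls, CSF3R 11 and 0, MPO 10 and 0, and OLR1 11 and 1. The part of these leukocyte and neutrophil markers in the SOX values was not tested.

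The genes that SOX factors bind with or act on were counted from lists written from general knowledge: TCF/LEF and beta-catenin factors, Wnt targets, SOX partners, targets of SOX9, of SOXC, of SOXF and of SOX2, and signals upstream of SOX genes. Of 96 genes listed, the other SOX genes and the noncoding SOX transcripts included, 50 were tested and 0 passed an adjusted p of 0.05 in edgeR with Benjamini-Hochberg adjustment, where 1.32% of all tested genes did. There were 6 at an unadjusted p under 0.05, beside 9.66% of all tested genes, and DESeq2 and limma-voom each also called 0. The median log2 fold change of the 50 was 0.00, against 0.01 for all tested genes.

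Among Wnt targets, 7 of 12 were tested. CCND1, the G1 cyclin, was at 758.3, 701.4, 749.5, 701.5, 896.9 and 798.7 CPM in coculture 1 to 6, and at 889.9, 973.5, 979.8 and 917.2 CPM in control 1 to 4. Coculture 5 alone reached the control range. Its log2 fold change was -0.29 ± 0.08 (SE), with an adjusted p of 0.163 in edgeR, the smallest of the listed genes. MYC was at 341.8 ± 43.3 CPM in coculture and 283.2 ± 50.9 CPM in controls (adjusted p = 0.546, edgeR), ZNRF3, a Wnt receptor ligase, at 17.5 ± 2.51 CPM in coculture and 19.2 ± 2.08 CPM in controls, and TNFRSF19 under 1 CPM in both groups. The median log2 fold change was -0.12. All 8 TCF/LEF and beta-catenin genes were tested, with a median of -0.04, and TCF7L1 had the smallest adjusted p (0.605, edgeR) at 7.85 ± 1.87 CPM in coculture and 6.24 ± 0.875 CPM in controls.

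Of 11 cartilage targets of SOX9, SOX5 and SOX6, 1 was tested: MATN1, a matrix protein, at 0.281 ± 0.235 CPM in coculture and 0.265 ± 0.142 CPM in controls. COL2A1, the collagen that SOX9 is best known to drive, had 0 counts in all 10 libraries. Of 9 SOXF targets, 3 were tested, with a median of 0.00: NR2F2, a venous and lymphatic factor, was at 74.5 ± 10.9 CPM in coculture and 89.9 ± 8.75 CPM in controls (log2 fold change -0.27 ± 0.11, adjusted p = 0.457, edgeR), and EPHB4 and PROX1 differed by less than their spread. All 7 SOXC targets were tested, with a median of -0.03, and SEMA3C, a semaphorin, was at 64.3 ± 13.7 CPM in coculture and 51.2 ± 5.52 CPM in controls (adjusted p = 0.535, edgeR). SEMA3C was the 1 listed gene called without coculture 1 and 2, with a log2 fold change of 0.48 ± 0.10 and an adjusted p of 0.0226 in edgeR. That fit called 210 of 15309 tested genes higher and 112 lower, so nothing is read from this 1 call. NES was the 1 of 8 SOX2 targets tested, at 1.08 ± 0.508 CPM in coculture and 0.792 ± 0.313 CPM in controls.

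Of the SOX partners, 8 of 12 were tested, with a median of 0.07 and no adjusted p under 0.546 in edgeR. All 15 upstream signals were tested, with a median log2 fold change of 0.28. TGFB2 was at 3.55 ± 1.07 CPM in coculture and 5.69 ± 0.910 CPM in controls (-0.68 ± 0.23, adjusted p = 0.287, edgeR), and TGFB1 was at 134.1 ± 27.6 CPM in coculture and 108.2 ± 3.39 CPM in controls (adjusted p = 0.480, edgeR), with its highest values of 167.5 and 171.2 CPM in coculture 1 and 2 and 116.5 ± 5.45 CPM in coculture 3 to 6. HEY1, a Notch target, was at 4.45 ± 0.606 CPM in coculture and 3.32 ± 0.412 CPM in controls (0.42 ± 0.16, adjusted p = 0.368, edgeR).

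**Figure D4:**
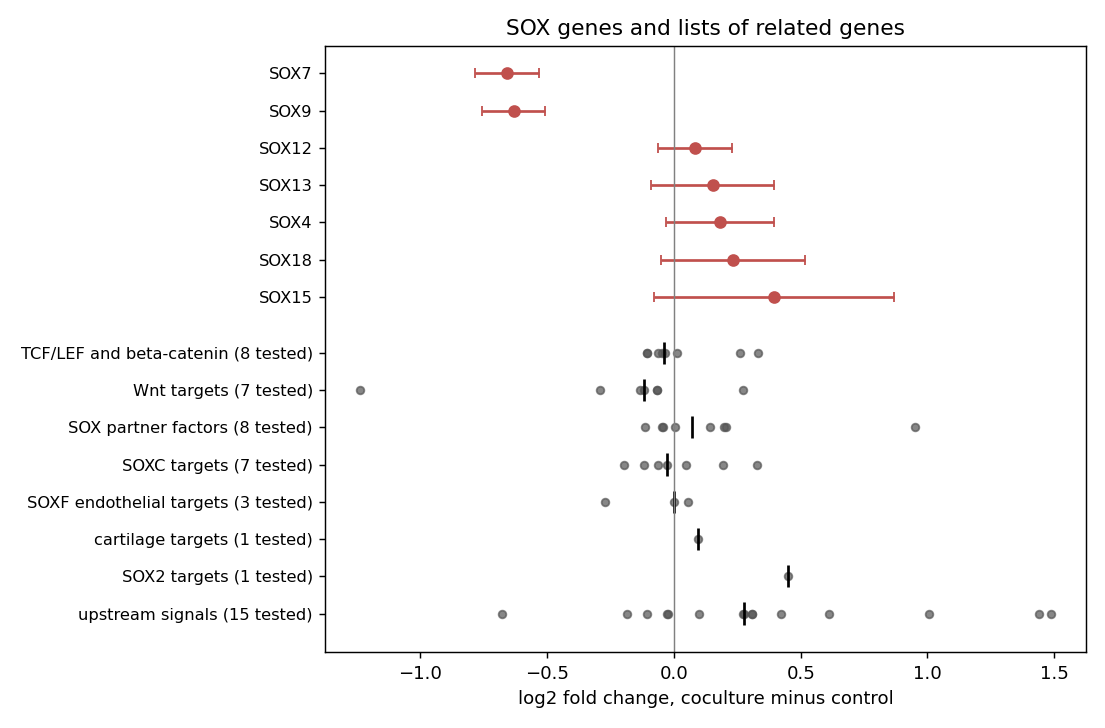
Log2 fold change (horizontal axis, coculture minus control) of the 7 SOX genes tested, as red points with SE bars, above the tested genes of 8 lists of related genes, as grey points with the median as a black line. SOX7 and SOX9 lie at -0.66 and -0.63, the other SOX genes lie between 0.08 and 0.40 with bars that reach past 0, and the lists with 7 or more tested genes have medians from -0.12 to 0.28.

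The nearest tested genes on each side of SOX7 and SOX9, taken by position, did not pass the threshold. RP1L1, 68661 bases before SOX7, was at 0.541 ± 0.241 CPM in coculture and 0.529 ± 0.121 CPM in controls. PINX1, 34387 bases after SOX7, was at 19.6 ± 5.94 CPM in coculture and 20.5 ± 3.63 CPM in controls. Their log2 fold changes were 0.04 ± 0.36 and -0.07 ± 0.22. KCNJ2, a potassium channel gene, lies 1944697 bases before SOX9 and so is not adjacent to it. It was at 1.82 ± 0.689 CPM in coculture and 3.45 ± 1.08 CPM in controls. Its log2 fold change was -0.93 ± 0.32, with overlapping groups and an adjusted p of 0.301 in edgeR. LINC00673, 276902 bases after SOX9, had a log2 fold change of -0.21 ± 0.12 (adjusted p = 0.608, edgeR).

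The miRNA-seq libraries, which did not choose the SOX genes, held 3971608 to 5895539 counts, and 3 counts corresponded to 0.534 to 0.715 CPM. A list of 23 miRNAs linked to these SOX genes was written from general knowledge, and 19 of them were among the 797 miRNAs tested. None of the 19 passed an adjusted p of 0.05 in edgeR, where 1.25% of all tested miRNAs did (1.13% higher and 0.125% lower in coculture), and 2 had an unadjusted p under 0.05, where 11.4% did. DESeq2 and limma-voom also called 0, with 3 each at an unadjusted p under 0.05. The median log2 fold change of the 19 was -0.02, against -0.05 for all tested miRNAs.

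Of the miRNAs listed for SOX9, miR-124-3p had 28 counts over all libraries and was not tested. Of those whose seeds are shown above, miR-145-5p was at 2.73, 4.51, 3.38, 7.84, 2.64 and 4.05 CPM in coculture 1 to 6, and at 7.39 ± 3.80 CPM in controls, where it ranged from 3.14 to 12.2 CPM. The groups overlapped, and its log2 fold change was -0.81 ± 0.38 (adjusted p = 0.432, edgeR). miR-101-3p was at 1554 ± 137 CPM in coculture and 1743 ± 237 CPM in controls, and miR-140-5p at 149.6 ± 10.1 CPM in coculture and 140.0 ± 19.9 CPM in controls. Of those listed for SOX7, miR-24-3p, a miRNA of many tissues also listed for SOX18, was at 6061 ± 317 CPM in coculture and 6728 ± 531 CPM in controls (-0.15 ± 0.10, adjusted p = 0.575, edgeR), miR-184 at 3.29 ± 1.57 CPM in coculture and 3.09 ± 0.765 CPM in controls, and miR-9-5p at 118.3 ± 28.3 CPM in coculture and 112.9 ± 21.4 CPM in controls. None of these 6 passed the test, and the ranges of the groups overlapped for each.

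The most abundant listed miRNA was miR-21-5p, listed for SOX2, at 427004 ± 38906 CPM in coculture and 386144 ± 40702 CPM in controls (adjusted p = 0.600, edgeR). miR-7-5p, listed for SOX18, was at 6031 ± 1258 CPM in coculture and 6248 ± 1135 CPM in controls, and miR-191-5p, listed for SOX4, at 4272 ± 533 CPM in coculture and 3912 ± 393 CPM in controls. miR-155-5p, an immune miRNA listed for SOX6, was at 3110 ± 393 CPM in coculture and 2293 ± 571 CPM in controls (0.44 ± 0.16, adjusted p = 0.320, edgeR). miR-200c-3p, an epithelial miRNA listed for SOX2 and named here after its values were seen, had the smallest adjusted p, 0.261 in edgeR. It was at 58.4, 127.2, 44.3, 42.9, 47.4 and 46.5 CPM in coculture 1 to 6 and at 30.3 ± 9.85 CPM in controls. The highest control, at 41.3 CPM, lay just under the lowest coculture library, and coculture 2 stood far above the rest.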

How the data were processed

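RNA-seq and miRNA-seq were made from TPC-1 cells, and the authors deposited raw read counts per gene and per mature miRNA, in whole numbers with totals that differ between libraries. Trizol was used for the RNA and Illumina protocols for the libraries, per the labels' protocols. The submitters' processing notes name the build GRCh38.p10, BWA and HISAT2 2.0.4, without saying which step used which. How reads were counted, with which annotation and whether by strand, is not given in the sources used here. Groups were taken from the treatment labels. No value column was left unused (0 columns).

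Counts were fitted in R 4.3.3 with edgeR 4.0.16 (TMM, filterByExpr by group, robust glmQLFit, glmQLFTest), coculture minus control, over 15629 genes and 797 miRNAs, with Benjamini-Hochberg adjustment over each assay and a threshold of 0.05. The SE was derived from the size of the log2 fold change and its F statistic. Alternatives used limma 3.58.1 (voom) and DESeq2 1.42.0. The depth was 40237801 to 48197608 counts (RNA-seq) and 3971608 to 5895539 (miRNA-seq). Counting intervals are at 95%, reads carried no stated molecular identifiers, and intervals and floors cover counting error only.

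The members and lists were chosen with earlier results of these data known. All 10 SOX genes are named. Of each list of related genes, called genes and otherwise up to 4 by adjusted p could be named, of the listed miRNAs the 5 most abundant, of like profiles the 2 nearest genes, and of marker lists the 3 most abundant. The marker genes named below that rule, the Hedgehog and matrix genes, miR-200c-3p and the other miRNAs listed for SOX7 and SOX9 were chosen after their values were seen. So were the unlisted miR-200a-3p, miR-200b-3p and miR-200b-5p. The fit was tested on simulated data.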

Additional observations from a re-analysis of the deposited data

Results flagged for a closer look

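Of 14 groups of SOX values checked (7 genes in 2 groups), 2 held a library far from the others, where chance gives about 1 in 20 groups. SOX9 stood at 67.7 CPM in control 1, while the other 3 controls lay between 51.8 and 52.3 CPM, and without control 1 the SOX9 log2 fold change was -0.53 ± 0.12. SOX13 stood at 23.3 CPM in control 1, while the other 3 controls lay between 14.9 and 16.0 CPM. Control 1 thus set the upper end of the control range for both genes.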

How the results depend on the processing

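Against 178 genes higher in coculture, DESeq2 gave 389, a replicate block 100, and leaving out 1 library 112 to 204. Against 29 lower genes, DESeq2 gave 95, the block 10, the fit without coculture 1 and 2 112, and leaving out 1 library 4 to 36. Lower calls were 14.01% of all calls in the fit of all libraries and 34.8% without coculture 1 and 2. Against 9 higher miRNAs, DESeq2 gave 14 and leaving out 1 library 5 to 12. Against 1 lower miRNA, DESeq2 size factors, limma-voom, the block and the fit without coculture 1 and 2 each gave 0, no filter gave 4, and leaving out 1 library 0 to 1. Listed related genes called were 0, and 1 without coculture 1 and 2, where 210 of 15309 tested genes were called higher and 112 lower. The cause of these shifts was not tested.

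SOX7 and SOX9 kept their sign under all 16 alternatives. Without coculture 1 and 2, SOX4 turned to -0.08, SOX12 to -0.11, SOX13 to -0.25 and SOX18 to -0.24. SOX12 also turned to -0.02 without coculture 2, and SOX15 to -0.11 with the replicate block. Of 478 values of 30 named related genes and miRNAs, 448 kept their direction and side of the threshold, 29 changed sign without being called and 1 was newly called (SEMA3C, 0.48 without coculture 1 and 2). Without coculture 1 and 2, CTNNBIP1 turned to -0.061, TCF7L2 to 0.049, EPHB4 to -0.20, NES to -0.032 and miR-7-5p to 0.10. limma-voom gave -0.27 for MATN1, -0.20 for PROX1 and -0.018 for EPHB4. EPHB4 was at -0.0042 with DESeq2 size factors, -0.013 with no filter and -0.0062 with DESeq2, and miR-7-5p was at 0.0032 with DESeq2 size factors and 0.038 with DESeq2. Leaving out 1 library gave -0.32 to 0.48 for MATN1, -0.46 to 0.31 for PROX1, -0.070 to 0.056 for EPHB4 and -0.15 to 0.048 for miR-7-5p. The SOX levels per kb, the SOX2 and SOX5 ratios and the PAX8, KRT18 and TGFB1 levels without coculture 1 and 2 were added after seeing the data.

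The labels do not say that replicate numbers pair the libraries, and the values do not settle it. The deviations of same-numbered RNA-seq libraries correlated at 0.35, -0.08, 0.20 and 0.14, and those of libraries with different numbers at -0.28 to 0.30. In miRNA-seq, same-numbered libraries correlated at 0.37, -0.03, 0.21 and 0.36, and those with different numbers at -0.32 to 0.22. With the replicate block the log2 fold change was -0.63 ± 0.16 for SOX7, which left the called set, and -0.73 ± 0.10 for SOX9. Coculture 5 and 6 have no control of the same number, so the block contrast rests on coculture 1 to 4 and control 1 to 4. Depth limits SOX2, SOX5 and SOX6, whose counts were 0 to 10 per library.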
